A study of Mus musculus with 9 samples.

Results

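The NF-kB genes of sorted bone marrow neutrophils were examined. They were the 5 subunit genes Rela, Rel, Relb, Nfkb1 and Nfkb2 and the IkB (inhibitor) family genes Nfkbia, Nfkbib, Nfkbie and Nfkbiz. The last was Tnfaip3, which encodes the ubiquitin-editing enzyme A20. These 10 symbols were taken as a family by name, and 9 were found among the 7197 genes of the deposited table. Tnfaip3 was not, so its expression is not analysed here and it enters the promoter search only. Neutrophils positive for CD45, CD11b and Ly6G came from mice 2 months old, given no treatment in the labels, in 5 Rragc+/+ and 4 RragcS74N/+ libraries. The labels number no replicates, so replicate numbers were assigned here by sample order within each genotype. Rragc encodes RagC, one of the Rag GTPases through which amino acids activate mTORC1, and RragcS74N/+ mice carry 1 endogenous allele with the activating S74N change in every tissue, not in neutrophils alone. The study's text describes separate mice of both genotypes, with more RragcS74N/+ mice than the libraries analysed here, while the labels tie no library to a mouse, so p-values measure the spread between these libraries.

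NF-kB factors are dimers of Rel-homology proteins that are held in the cytoplasm by IkB proteins until the IKK kinases mark the IkB for destruction. RelA, c-Rel and RelB carry transactivation domains, whereas Nfkb1 and Nfkb2 encode precursors that are processed to p50 and p52 and that act like inhibitors while uncut. IkB-alpha, the product of Nfkbia, is resynthesised under the control of NF-kB itself and ends the response. In neutrophils the pathway is known for driving inflammatory cytokines and prolonging survival.

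As the kB site is the element that NF-kB dimers are known to bind, 4 promoters from RefSeq (GRCm38.p6) are given below as the 150 bases before the annotated start, 5′ to 3′ on the strand of the gene, with matches to the kB consensus on either strand in capitals; overlapping matches run together. Those of Nfkbia, Nfkbie and Nfkb2 are shown because Nfkbia was the most abundant member and the others had the largest genotype differences, and that of Rela because it held no match. They lie at chr12:55492648-55492797 (minus strand), chr17:45555550-45555699, chr19:46304587-46304736 and chr19:5637391-5637540 (plus strand).
Nfkbia: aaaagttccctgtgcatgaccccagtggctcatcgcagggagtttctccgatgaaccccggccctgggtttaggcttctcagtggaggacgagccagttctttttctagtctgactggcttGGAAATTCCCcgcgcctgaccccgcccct
Nfkbie: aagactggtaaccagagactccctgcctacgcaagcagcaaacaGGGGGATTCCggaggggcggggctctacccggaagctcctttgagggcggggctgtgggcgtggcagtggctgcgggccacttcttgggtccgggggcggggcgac
Nfkb2: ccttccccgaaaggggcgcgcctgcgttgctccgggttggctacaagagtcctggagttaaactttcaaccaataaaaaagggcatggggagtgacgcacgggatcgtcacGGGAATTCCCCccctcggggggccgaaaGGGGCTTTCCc
Rela: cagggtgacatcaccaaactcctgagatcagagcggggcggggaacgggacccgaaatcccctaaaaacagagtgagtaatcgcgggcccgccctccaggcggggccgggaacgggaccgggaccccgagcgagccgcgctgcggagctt

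The RefSeq promoter table held 7 of the 10 genes, without Nfkb1, Relb and Nfkbiz. A match stood in the windows of Nfkbia, Nfkbie, Rel, 1 of 3 starts of Nfkb2 and 1 of 2 starts of Tnfaip3, and in neither Rela nor Nfkbib. Of 32851 promoter windows of this length, 4.6% held a match. In Nfkbia the match ended 20 bases before the start, and in Nfkbie 97 bases before it. The first Nfkb2 start had overlapping matches on both strands from 39 to 29 bases before it and 1 more from 11 to 2. A match describes letters in a window and shows no binding in these cells.

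The libraries held 1214295 to 1973957 recovered reads over the listed genes. Of the neutrophil markers, 8 of 8 were listed, and Ly6g lay between 2036 and 4066 normalized counts and Itgam, which encodes CD11b, between 903 and 1315 over all libraries. A normalized count is the number of reads of a gene divided by 1 size factor per library. Of the markers of other cells, 2 of 8 monocyte, 1 of 8 B cell, 1 of 7 T and NK cell, 4 of 7 eosinophil and basophil and 7 of 8 erythroid genes were listed; Cd79a and Cd3e were not. Rragc+/+ replicate 2 had the lowest mean Spearman correlation with the other libraries, 0.901 against 0.935 to 0.954 for the rest. The Rragc transcript averaged 71.0 ± 10.3 normalized counts in the controls (SD, n = 5) and 65.8 ± 9.52 in the mutant libraries (SD, n = 4), and a gene-level count cannot tell the alleles apart.

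Nfkbia dominated the family. It averaged 1015.6 ± 95.5 normalized counts over both genotypes (SD, n = 9), or 68.3% ± 2.91 of the reads of the 9 members, and stood at percentile 97.4 of all listed genes by mean level. Rela, the transactivating subunit of the canonical dimer, followed with a mean of 121 and Nfkbiz, which encodes the nuclear IkB-zeta that directs secondary response genes, with 117. Nfkbib, encoding the slower inhibitor IkB-beta, averaged 66.4, Nfkb1 54.2 and Rel, encoding c-Rel, 52.4. The 3 scarcest members were Relb, which serves the noncanonical pathway, at 24.6, its partner Nfkb2 at 19.1, and Nfkbie, encoding IkB-epsilon, at 18.4. Reads were counted at transcript 3′ ends, where a transcript yields reads near 1 site, so these levels were compared without division by length.

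Not all places in this order were separated by the data. Each of 8 neighbouring pairs was compared within the 9 libraries by a two-sided exact permutation test with sign flips, whose smallest possible p is 0.00391. Nfkbia exceeded Rela by 3.07 on the log2 scale, Nfkbiz exceeded Nfkbib by 0.77 and Rel exceeded Relb by 1.06, each in 9 of 9 libraries (exact permutation test, adjusted p = 0.0104 for all 3). Rela and Nfkbiz changed places in 4 libraries (exact permutation test, adjusted p = 0.797), and Nfkb1 and Rel differed by 0.03 on the log2 scale (exact permutation test, adjusted p = 0.844). Nfkb2 and Nfkbie differed by 0.04 (exact permutation test, adjusted p = 0.844). Relb exceeded Nfkb2 in 7 of 9 libraries (exact permutation test, adjusted p = 0.0781) and Nfkbib exceeded Nfkb1 in 7 of 9 (exact permutation test, adjusted p = 0.150). The 3 steps that passed the test divided the order into Nfkbia alone, Rela with Nfkbiz, then Nfkbib, Nfkb1 and Rel, and at the bottom Relb, Nfkb2 and Nfkbie. The order was set by the means in these same libraries and only neighbours were compared, so the groups describe these data.

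**Figure D1:**
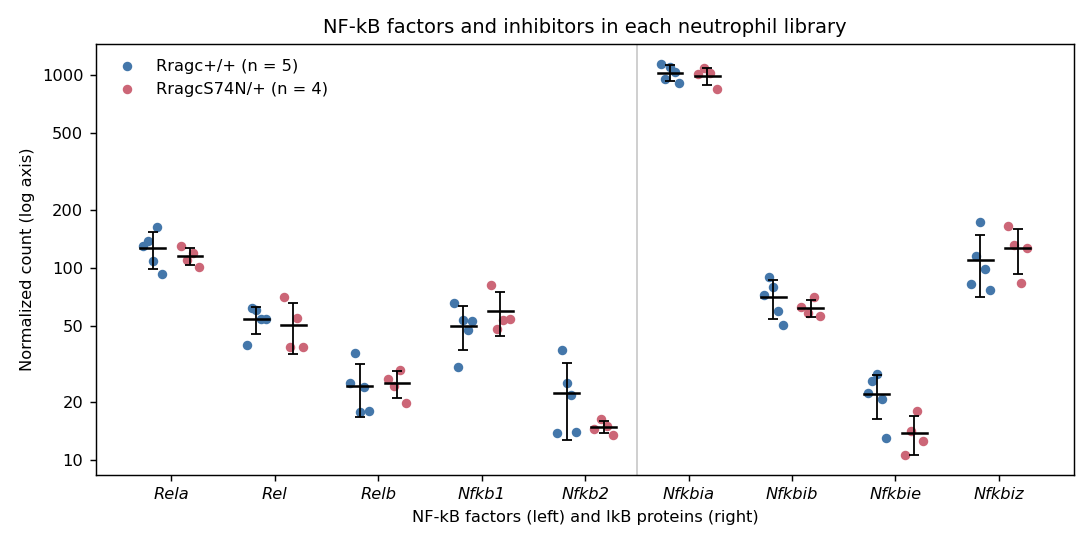
Normalized counts of the 9 listed members on a log axis, 1 point per library, with Rragc+/+ in blue (n = 5) and RragcS74N/+ in red (n = 4); horizontal bars are means and whiskers 1 SD. Nfkbia lay between 851 and 1151 in every library, above each value of the other members, and the genotypes overlapped for all 9 genes.

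Whether the active RagC allele altered these genes was then tested with limma across 6673 genes that averaged at least 10 normalized counts, a filter that all 9 listed members passed. None of the members passed an adjusted p of 0.05, as was the case for 0 of the 6673 genes, or 0%. At an unadjusted p under 0.05 there was 1 of the 9, Nfkbie, as for 5.81% of all genes; it was lower in RragcS74N/+, as 3.81% of all genes were at this p, and 0 of the 9 were higher, against 2.01%. By sign alone, 6 members were lower and 3 higher in RragcS74N/+, with a median log2 difference of -0.11, against 46.6% of all genes lower and a median of 0.02. The genotypes overlapped for all 9 members, and 1.69% of all genes had none. Count-based tests on the recovered reads gave 0 called genes too, with 460 genes at an unadjusted p under 0.05 in edgeR, 447 in DESeq2 and 388 in limma.

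Of the transactivating subunits, Rela measured 129, 138, 108, 163 and 92.2 normalized counts in Rragc+/+ replicates 1 to 5 and 130, 110, 119 and 101 in RragcS74N/+ replicates 1 to 4. All 4 RragcS74N/+ values lay within the range of the controls. The log2 difference was -0.11 (SE 0.19) with a 95% interval from -0.52 to 0.30 (limma, adjusted p = 0.862), which ranged from -0.21, without Rragc+/+ replicate 5, to -0.01, without Rragc+/+ replicate 4, and turned to 0.12 once the dependence of each library on 3′-end GC content (the GC trend) was removed. Rel ranged from 39.5 to 61.9 in Rragc+/+ and from 38.6 to 70.3 in RragcS74N/+, a log2 difference of -0.12 with an interval from -0.60 to 0.36 (limma, adjusted p = 0.875). Both extremes of Rel fell within the mutant group, and the difference was -0.0044 without its lowest library, replicate 2, and -0.29 without its highest, replicate 1. Relb ranged from 17.8 to 36.2 and from 19.9 to 29.4, with a log2 difference of 0.08 and an interval from -0.45 to 0.61 (limma, adjusted p = 0.927); it was 0.23 without Rragc+/+ replicate 2, and its sign turned to -0.02 without Rragc+/+ replicate 3.

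The precursor genes differed in opposite directions, neither beyond the spread between libraries. Nfkb1, which encodes p105 and p50, measured 65.9, 30.4, 53.4, 47.4 and 53.1 normalized counts in Rragc+/+ and 81.6, 47.8, 53.5 and 54.3 in RragcS74N/+. The low value of Rragc+/+ replicate 2 and the high value of RragcS74N/+ replicate 1 bounded the set. Its log2 difference was 0.25 with a standard error of 0.24 (limma, adjusted p = 0.756), and it was 0.087 without the former library and 0.091 without the latter. Nfkb2, which encodes p100 and p52, measured 13.8, 37.4, 25.3, 21.7 and 14.0 in Rragc+/+ and 14.6, 16.3, 15.1 and 13.6 in RragcS74N/+. The mutant libraries had a coefficient of variation of 7.48% and the controls 43.2%. Of the controls, 3 lay above all mutant libraries and the other 2 among them. With 13 to 32 Nfkb2 reads per library, counting alone would give a coefficient of 21.6% at the mean over both genotypes. The mutant coefficient lay below that, so the close grouping of these 4 libraries is not read as a trait of the genotype. The log2 difference of Nfkb2 was -0.47 (SE 0.29) with an interval from -1.10 to 0.16 (limma, adjusted p = 0.713). It was -0.27 without Rragc+/+ replicate 2 and -0.18 with the GC trend removed.

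Nfkbia, the most precisely measured member, was nearly even between genotypes. Its values were 1151, 955, 1102, 1043 and 913 normalized counts in Rragc+/+ and 1017, 1087, 1023 and 851 in RragcS74N/+, with 1 mutant library, replicate 4, below the lowest control. The means were 1033 ± 98.9 (SD, n = 5) and 994 ± 101 (SD, n = 4). The log2 difference was -0.06 (SE 0.15) with a 95% interval from -0.38 to 0.27 (limma, adjusted p = 0.912). With 814 to 1747 reads per library, counting alone would give a coefficient of variation of 2.97%, whereas 9.40% was observed between libraries. Without RragcS74N/+ replicate 4 the sign turned, to 0.02.

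The other inhibitors of the cytoplasm were scarcer and less even. Nfkbie measured 22.4, 25.7, 28.1, 20.9 and 13 normalized counts in Rragc+/+ and 10.6, 14.2, 18.1 and 12.5 in RragcS74N/+. In all, 4 of the 5 controls lay above all mutant libraries, and the other, replicate 5, lay below 2 of them. The means were 22.0 ± 5.76 (SD, n = 5) and 13.9 ± 3.17 (SD, n = 4), a log2 difference of -0.61 (SE 0.27) with an interval from -1.20 to -0.03. Its unadjusted p was 0.0405 and its adjusted p 0.713 in limma, so it did not pass the correction. Each library gave 12 to 34 Nfkbie reads, for which counting alone would give a coefficient of variation of 22.0% at the mean over both genotypes. The observed coefficient was 26.2% within Rragc+/+ and 22.9% within RragcS74N/+. Over all 9 libraries it was 33.9%, which includes the difference between genotypes. Leaving out any 1 of 7 libraries took the unadjusted limma p over 0.05, up to 0.105 without RragcS74N/+ replicate 1; it was 0.00865 without Rragc+/+ replicate 5 and 0.0276 without RragcS74N/+ replicate 3. Nfkbib ranged from 50.1 to 90.0 in Rragc+/+ and from 56.4 to 70.0 in RragcS74N/+, within the controls, with a log2 difference of -0.16 and an interval from -0.59 to 0.27 (limma, adjusted p = 0.805) that was -0.06 without Rragc+/+ replicate 2, -0.27 without Rragc+/+ replicate 5 and 0.06 with the GC trend removed.

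IkB-zeta, unlike the other IkB proteins among the members, acts in the nucleus and is induced by Toll-like receptor and interleukin-1 signals. Nfkbiz measured 82.3, 116, 173, 98.1 and 76.2 normalized counts in Rragc+/+ and 164, 131, 82.8 and 126 in RragcS74N/+. Each genotype had libraries near both ends of the range. The log2 difference was 0.23 (SE 0.26) with an interval from -0.32 to 0.78 (limma, adjusted p = 0.787). It was 0.09 without RragcS74N/+ replicate 1, 0.42 without RragcS74N/+ replicate 3, 0.04 with the GC trend removed and 0.02 with array quality weights.

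**Figure D2:**
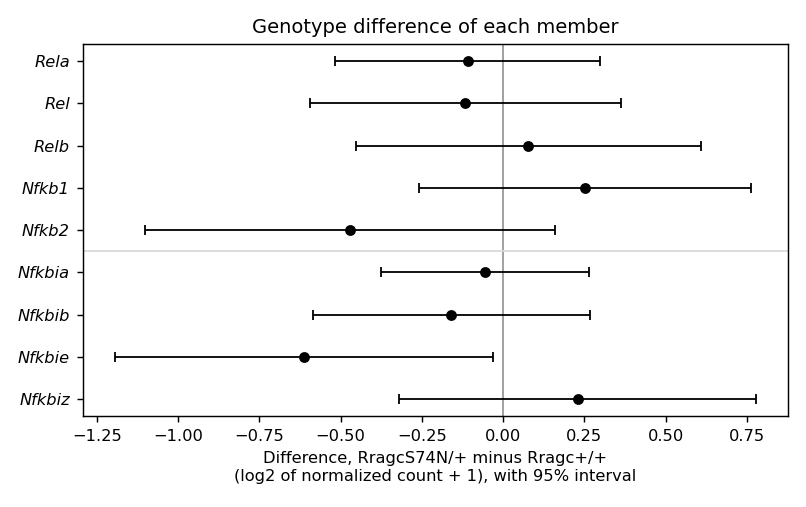
Difference between genotypes for each member, RragcS74N/+ minus Rragc+/+, in log2 of the normalized count plus 1, with points for limma estimates and bars for 95% intervals. The interval for Nfkbia, from -0.38 to 0.27, was the narrowest, and that for Nfkbie, from -1.20 to -0.03, was the one that left out 0 before correction.

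Removal of the GC trend also took the log2 difference of Rel to -0.26, of Relb to 0.32, of Nfkbia to -0.17 and of Nfkb1 to 0.10, none of which passed the threshold (limma, adjusted p at least 0.863 for each member).

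Correlations between members were computed over all libraries, genotypes pooled, so a difference between genotypes enters them. Of 36 pairs of members, 26 correlated positively over the 9 libraries, 4 had an unadjusted p under 0.05 and 0 passed after adjustment (exact permutation test, smallest adjusted p = 0.223). The strongest were Nfkbib with Nfkbie (Pearson r = 0.79, exact permutation p = 0.0132; Spearman rho = 0.77, exact permutation p = 0.0214) and Nfkb1 with Nfkb2 (r = -0.77, exact permutation p = 0.0170; rho = -0.72, exact permutation p = 0.0369). With the 2 libraries farthest from the median of the first gene left out, r was 0.57 and -0.44. The second pair rests in part on Rragc+/+ replicate 2, the lowest library for Nfkb1 and the highest for Nfkb2. Nfkb2 also went with Nfkbib, at r = 0.73, which was -0.04 without 2 libraries, and with Nfkbie, at r = 0.72, which was 0.43.

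**Figure D3:**
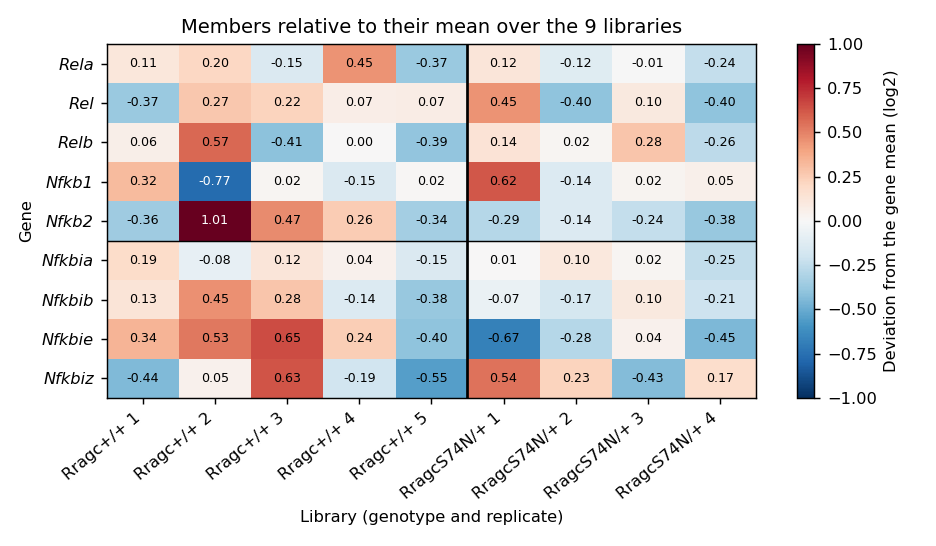
Deviation of each member from its own mean over the 9 libraries, in log2, with libraries in columns and the genotypes divided by the vertical line. Rragc+/+ replicate 2 was at 1.01 for Nfkb2 and -0.77 for Nfkb1, and Nfkbia stayed between -0.25 and 0.19 throughout.

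Genes like Nfkbia over the 9 libraries were looked for among 3392 with a mean of at least 50. The search left out the members, the pathway lists given below, the cell markers and the immediate early genes. The most like Nfkbia were Tram1 (Pearson r = 0.93), Arih2 (0.91), Itgb2 (0.90), Man2b1 (0.90) and Mafg (0.90). These r are the highest of many and describe the pattern only. Other cell types and handling were measured beside the members. The summed erythroid markers ranged from 1091 to 5609 normalized counts in Rragc+/+ (median 2958) and from 379 to 2158 in RragcS74N/+ (median 996). They were highest in Rragc+/+ replicate 5, the lowest control for Nfkbie and the lowest of all 9 libraries for Rela, Nfkbiz and Nfkbib. The 2 listed monocyte markers, Csf1r and Adgre1, summed to 135 to 390 and 108 to 186, the highest in Rragc+/+ replicate 2, where Nfkb2, Relb and Nfkbib were highest. The 6 listed immediate early genes of 9, which can rise during cell handling, summed to 1281 to 1732 and 1177 to 1775. Summed markers of immature neutrophils ranged from 25719 to 33644 in Rragc+/+ and 21744 to 34950 in RragcS74N/+, of mature neutrophils from 26918 to 31144 and 23729 to 31745, and of cycling cells from 359 to 763 and 379 to 676. The listed eosinophil and basophil markers summed to 52.5 to 136 and 59.0 to 218, the B cell marker Ighm to 87.6 to 140.3 and 83.5 to 123, and the T cell marker Cd3d to 14.5 to 28.9 and 14.6 to 18.8. The part of these cells and signals in the values of the members was not tested. In bulk samples fewer cells of a type and less RNA per cell cannot be told apart.

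The rest of the pathway was described by 4 lists. Receptors and adaptors that lead to IKK had 21 of 27 genes tested, 0 called and a median log2 difference of -0.08, which was -0.01 without Rragc+/+ replicate 2 or RragcS74N/+ replicate 3. The most abundant was Tnfrsf1a, the main receptor for tumour necrosis factor, with 493 ± 56.2 normalized counts (SD, n = 5) and 464 ± 31.6 (SD, n = 4), followed by the adaptor Myd88 at 382 and 407, Bcl10 at 331 and 310, and the kinase Irak4 at 252 and 204. Their adjusted p-values in limma ran from 0.772 to 0.873. At an unadjusted p under 0.05 there was 1 gene of 21, against 5.81% of all genes. This was the lymphotoxin-beta receptor gene Ltbr, an activator of the noncanonical pathway (unadjusted p = 0.0190 in limma). It measured 205 ± 29.3 (SD, n = 5) and 145 ± 35.3 (SD, n = 4), a log2 difference of -0.51 (limma, adjusted p = 0.713) that was -0.23 with the GC trend removed. The unadjusted limma p of Ltbr was 0.184 with the GC trend removed and 0.0773 without RragcS74N/+ replicate 4.

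IKK-activating kinases and the ubiquitin machinery of IkB turnover had 19 of 24 genes tested, 0 called and a median of 0.02, which lay between -0.01, without RragcS74N/+ replicate 2, and 0.06, without RragcS74N/+ replicate 3. Ube2d3, a ubiquitin-conjugating enzyme, was the most even of those named, with 1632 ± 64.3 normalized counts (SD, n = 5) and 1651 ± 70.3 (SD, n = 4). Rbx1, a subunit of the cullin ligases, measured 341 and 370, Tab2, an adaptor of TAK1, 287 and 311, and Fbxw11, which recognises phosphorylated IkB, 136 and 121, with adjusted p-values in limma from 0.787 to 0.977. Of the 19, 1 had an unadjusted p under 0.05, against 5.81% of all genes. This was Rbck1, which encodes the LUBAC subunit HOIL-1 (unadjusted p = 0.0248, adjusted p = 0.713 in limma). It measured 46.1 ± 17.9 (SD, n = 5) against 25.9 ± 4.40 (SD, n = 4), with Rragc+/+ replicate 5, at 22.1, inside the mutant range. Its unadjusted limma p ran from 0.00127 without Rragc+/+ replicate 5 to 0.0755 without RragcS74N/+ replicate 2. With the GC trend removed it was 0.0541 in limma.

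Other brakes on the pathway had 15 of 19 genes tested, 0 called and a median of -0.11, which was -0.05 without Rragc+/+ replicate 2. Tax1bp1, a partner of A20, measured 671 and 732 normalized counts, Pdlim2, which promotes RelA degradation, 514 and 409, Rnf11 388 and 451, and Zfp36, which destabilises cytokine mRNA, 322 and 291, with adjusted p-values in limma from 0.713 to 0.861. Bcl3, an atypical nuclear IkB protein, measured 179, 349, 285, 232 and 152 in Rragc+/+ and 172, 162, 154 and 111 in RragcS74N/+. Bcl3 was the 1 gene of 15 with an unadjusted p under 0.05 in limma, against 5.81% of all genes. In Bcl3, 4 controls lay above all mutant libraries. Its log2 difference was -0.63 with a standard error of 0.24 (limma, unadjusted p = 0.0200, adjusted p = 0.713), and -0.33 with the GC trend removed. The unadjusted limma p of Bcl3 was 0.0919 with the GC trend removed. It was 0.0522 without Rragc+/+ replicate 3 and 0.0726 without RragcS74N/+ replicate 4 in limma.

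Known targets of NF-kB other than the members had 13 of 33 genes tested, as 17 were listed and 4 of these missed the filter on low values. Of the 13, 0 passed the adjusted threshold, with a median log2 difference of -0.20 that was -0.04 without RragcS74N/+ replicate 1, and 4 had an unadjusted p under 0.05, all lower in RragcS74N/+, the side on which 3.81% of all genes stood. The most abundant was Il1b, the interleukin-1 beta gene, with 1203 ± 138 normalized counts (SD, n = 5) and 1254 ± 247 (SD, n = 4), a log2 difference of 0.05. Il1rn, encoding the antagonist of the same receptor, measured 592 and 507, and Clec4e, encoding the receptor Mincle, 389 and 481. Il1b and Clec4e thus lay on the other side of 0 from the list's median, with adjusted p-values in limma of 0.940 and 0.725.

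The 4 targets with an unadjusted p under 0.05 were Ehd1, Gadd45b, Ier3 and Plaur. Ehd1, an endocytic recycling protein, measured 545, 722, 569, 562 and 411 normalized counts in Rragc+/+ and 329, 420, 429 and 335 in RragcS74N/+, with Rragc+/+ replicate 5 inside the mutant range. Its log2 difference was -0.56 with a standard error of 0.18 (limma, adjusted p = 0.713), and -0.19 with the GC trend removed. Ier3, an early response gene, measured 335, 568, 386, 476 and 328 in Rragc+/+ and 259, 320, 327 and 291 in RragcS74N/+. Its groups did not overlap, as was the case for 1.69% of all genes. The lowest control exceeded the highest mutant library by less than 1 normalized count, and the log2 difference was -0.46 (limma, adjusted p = 0.713). Gadd45b, a stress-inducible gene, had 74.7 ± 26.3 (SD, n = 5) and 44.2 ± 3.13 (SD, n = 4), a log2 difference of -0.68 that was -0.32 with the GC trend removed. Plaur, encoding the urokinase receptor, had 376 ± 152 (SD, n = 5) and 243 ± 28.5 (SD, n = 4), a log2 difference of -0.56 that was -0.35 without Rragc+/+ replicate 2, the highest library for all 4 genes. The unadjusted p under 0.05 did not hold for all 4 in every setting. Without Rragc+/+ replicate 2 it was 0.0667 for Ier3 and 0.0685 for Plaur in limma. For Ier3 it was also over 0.05 without Rragc+/+ replicate 4 or RragcS74N/+ replicate 1 or 4, up to 0.0792 in limma. For Plaur it was also over 0.05 without Rragc+/+ replicate 3 or RragcS74N/+ replicate 2, 3 or 4, up to 0.0827 in limma. It was 0.0508 for Plaur in limma with no trend in the moderation. With the GC trend removed it was 0.188 for Ehd1 and 0.0785 for Gadd45b in limma. These 4 genes were not called in limma at the adjusted threshold (adjusted p = 0.713 for each), and the list was chosen with earlier results known.

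**Figure D4:**
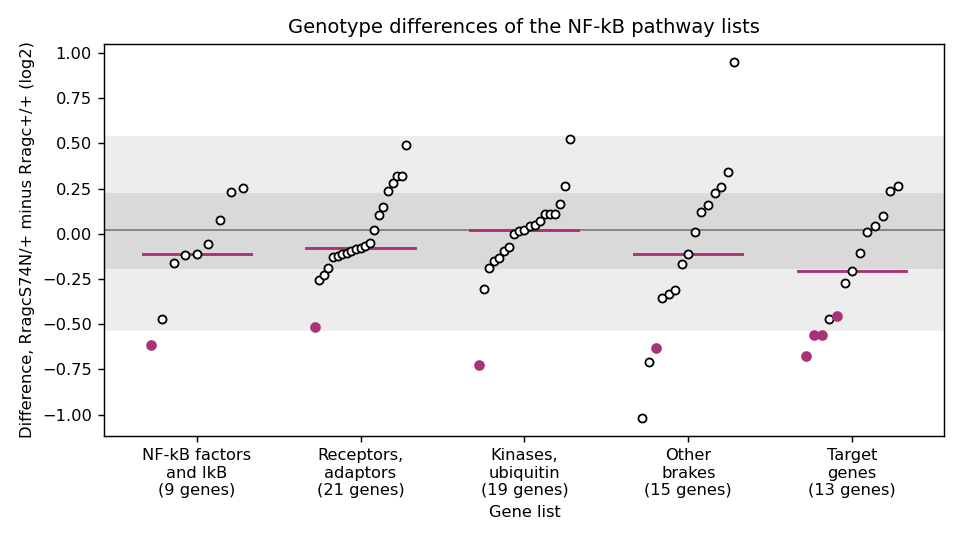
Log2 differences between genotypes, RragcS74N/+ minus Rragc+/+, for the tested genes of 5 lists, 1 point per gene, filled where the unadjusted limma p was under 0.05; short bars are list medians, and shaded bands hold the middle 50% and 90% of all 6673 genes. The filled points, 1, 1, 1, 1 and 4 from left to right, all lay below 0, between -0.73 and -0.46, and none passed the adjusted threshold.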

How the data were processed

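RNA of sorted neutrophils was made into 3′-end libraries (QuantSeq, oligo-dT priming, molecular identifiers in the second strand) and sequenced. Per the study's methods and the submitters' processing notes, reads were aligned to GRCm39 with TopHat2 (2.0.10) and counted per gene with HTSeq (0.6.1). The deposited values are a signal: gene counts that the authors divided by a size factor per library. Collapsing by molecular identifier is not given in the sources used here, so counting errors cover counting only and may be too small. Values were whole multiples of 1 read within 0.001 reads, and these multiples, 1214295 to 1973957 per library, are the recovered reads. Every gene in the table was read in 7 or more of the 9 libraries, so scarce transcripts are under-represented. Libraries of a genotype differed beyond sampling noise (chi-square per degree of freedom at least 5.7 over 16 pairs), so none was a duplicate.

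Genotype came from GEO's labels. Values were tested as log2(value + 1), for genes with a mean of at least 10, by limma (3.58.1, R 4.3.3) with trended moderation and Benjamini-Hochberg adjustment over all genes, threshold 0.05. On this scale the change of low genes is understated. edgeR (4.0.16) and DESeq2 (1.42.0) on recovered reads were alternatives, as were the pseudocount, filter, scaling, moderation, weights, omission of single libraries, and a correction that removed the dependence of a library on GC content in the last 500 nucleotides of GENCODE M21 transcripts (GRCm38, 7067 of 7197 genes matched by symbol). DESeq2 gave no adjusted p for 8 genes. The members and lists were chosen with earlier results of these data known. Named genes were the members, the 4 most abundant tested genes of each list and any gene called, the 5 genes most like Nfkbia, Rragc and markers; list genes with an unadjusted p under 0.05 were named after their values were seen. The fit was tested on simulated data. The changes planted there were larger than any genotype difference given here, so recovery of differences of this size was not tested.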

Additional observations from a re-analysis of the deposited data

Results flagged for a closer look

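Within each genotype, libraries standing apart were looked for in 31 named genes, and 3 of the 62 groups held one, where chance gives about 3.1 (1 in 20). Among the members there was none. Myd88 was high in Rragc+/+ replicate 1, at 531 normalized counts, with a gap to the nearest library of 0.766 of the range of its genotype. Zfp36 was low in Rragc+/+ replicate 4, at 199 normalized counts, with a gap of 0.744. Clec4e was low in RragcS74N/+ replicate 3, at 295 normalized counts, with a gap of 0.879.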

How the results depend on the processing

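No paired analysis was possible because GEO's labels number no replicates. The counts of 0 called genes, over all genes, the members and the 4 lists, held under all alternatives run, and the smallest adjusted p over all genes ran from 0.326, without Rragc+/+ replicate 5, to 0.994, without Rragc+/+ replicate 2. At an unadjusted p under 0.05 the 388 genes became 191 under a minimum mean of 50, which tested fewer genes, 769 with array quality weights and 258 after GC correction. Leaving out 1 library gave from 201, without Rragc+/+ replicate 2, to 907, without Rragc+/+ replicate 5. Of these, 641 came without Rragc+/+ replicate 1, 224 without Rragc+/+ replicate 3 or RragcS74N/+ replicate 4, and 256 without RragcS74N/+ replicate 2. The count of 1 member fell to 0 under a minimum mean of 50, where Nfkbie was not tested, after GC correction, where Nfkbie had an unadjusted limma p of 0.0509, and without any 1 of 7 libraries. The median of the members, -0.11, was 0.04 after GC correction and lay between -0.17, without RragcS74N/+ replicate 1, and -0.0048, without RragcS74N/+ replicate 4, with -0.063 without Rragc+/+ replicate 2. The median of the targets, -0.20, was -0.46 under a minimum mean of 50 and -0.061 with array quality weights, and lay between -0.26, without Rragc+/+ replicate 5, and -0.037, without RragcS74N/+ replicate 1, with -0.12 without Rragc+/+ replicate 1.

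With the GC trend removed, the log2 difference reversed for Rela to 0.12, Nfkbib to 0.062, Tnfrsf1a to 0.073, Bcl10 to 0.14, Ube2d3 to -0.11 and Tab2 to -0.056. When 1 library was left out, it ranged from -0.016 to 0.23 for Relb, from -0.10 to 0.018 for Nfkbia, from -0.18 to 0.21 for Rbx1, from -0.060 to 0.18 for Il1b, from -0.0041 to 0.037 for Ube2d3, from -0.013 to 0.22 for Tab2 and from -0.15 to 0.0011 for Rragc. The cause was not tested. The 3 separated steps in the order of levels became 4 when genes were ordered by median, without Rragc+/+ replicate 3 and without RragcS74N/+ replicate 1. Depth limits Nfkb2, Nfkbie and Relb most, with 12 to 40 reads per library.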
